A study of Mus musculus with 2 samples.

Results

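Transcripts of the nuclear receptor superfamily were examined in the mouse adrenal gland. The 47 members were taken by gene symbol, after the identifiers of the deposited gene tables had been matched without their version to GENCODE names, out of 43346 mouse gene identifiers in those tables. They comprise the steroid, thyroid hormone, retinoic acid, vitamin D, lipid and xenobiotic receptors, the orphan receptors and the pair of members that lack a DNA-binding domain. The study holds 1 group, adrenal gland tissue of adult C57BL/6J mice aged 8 weeks, littermates of mixed sex per the labels, with no treatment or altered gene named. It has 2 libraries, called biological replicates 1 and 2 by the labels. They carry different biosample numbers and the same donor number, and neither says how many animals were pooled. Poly(A) RNA longer than 200 nt, depleted of ribosomal RNA, was read in stranded pairs of 76 nt. With 1 group there is no contrast between conditions, so the data show which receptors the gland expressed, in what form and amount, and how closely the 2 libraries matched.

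Nuclear receptors are transcription factors that bind DNA through a pair of zinc fingers and carry a pocket for small lipophilic ligands such as steroids, retinoids and fatty acids. On binding, most exchange corepressors for coactivators at their target genes, and many do so as heterodimers with a retinoid X receptor. In the adrenal cortex the orphan receptor SF1, encoded by Nr5a1, is required for the gland to form and drives the genes of steroid synthesis, while DAX1, encoded by Nr0b1, represses SF1. The gland is unusual in that it makes the glucocorticoids and mineralocorticoids that other members of the superfamily sense.

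The libraries held 48059863 (replicate 1) and 53294872 (replicate 2) expected counts. Markers of the cortex, the capsule and the medulla were detected in full in both libraries. Markers of other tissue were present too and differed between the libraries. All 7 adipocyte genes were detected, with a summed level of 12386 TPM in replicate 1 and 5366 in replicate 2. Most of each sum came from 1 gene, Cfd, at 9884 and 3984 TPM. TPM is the share of a transcript per unit of length, scaled to a fixed total. Of 6 hepatocyte genes 2 were detected, the 6 summed to 6.19 and 35.4 TPM, and Ttr and Fgb had 0 counts in replicate 1. The 4 stomach and pancreas genes summed to 69.99 and 2.31 TPM, led by Clps, and none was at 0. Of the 4 kidney tubule genes none was detected. The 3 genes of the zona fasciculata, the zone that makes glucocorticoids, summed to 1521 and 2373 TPM. Against the label of mixed sex, the Y-linked genes Ddx3y, Uty, Kdm5d and Eif2s3y had 0 counts in replicate 2, which allows up to 0.0563 CPM (counts scaled to a common library total), and 26 to 221 counts in replicate 1, while Xist stood at 5.70 TPM in replicate 1 and 12.9 in replicate 2. The part of tissue composition or sex in any receptor's level was not tested. In bulk tissue, fewer cells of a type and less RNA per cell cannot be told apart.

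Of the 47 receptor genes, 35 were detected, meaning 1 TPM or more in both libraries. The same threshold was met by 28.7% of all gene identifiers and by 54.6% of the 21474 protein-coding genes. Together the members held 0.368% of all TPM outside spike-ins in replicate 1 and 0.460% in replicate 2. The distribution was steep: 10 members exceeded 100 TPM in both libraries, 16 exceeded 50 TPM, and 11 lay between 1 and 10 TPM in both. The highest 6, which were Nr5a1, Nr1d1, Nr2f6, Nr1h2, Nr4a1 and Nr0b2, held 65.8% of the members' summed TPM in replicate 1 and 72.4% in replicate 2. The median detected member stood at 44.3 TPM, against 16.1 TPM over all 11718 detected protein-coding genes. In the order of mean levels, every value of the genes down to Nr5a1, Nr0b2, Nr2f1, Nr1d2, Rara, Esr1 and Esrrg lay above every value of the genes below them. Within the blocks that these genes close, values of some members overlapped. Nr4a1, at 158 and 412 TPM, spanned the values of Nr2f6 and overlapped those of Nr1d1, and Vdr, at 5.82 and 2.64, overlapped the genes on both sides of Nr3c2, so these places are not resolved by the 2 libraries.

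**Figure D1:**
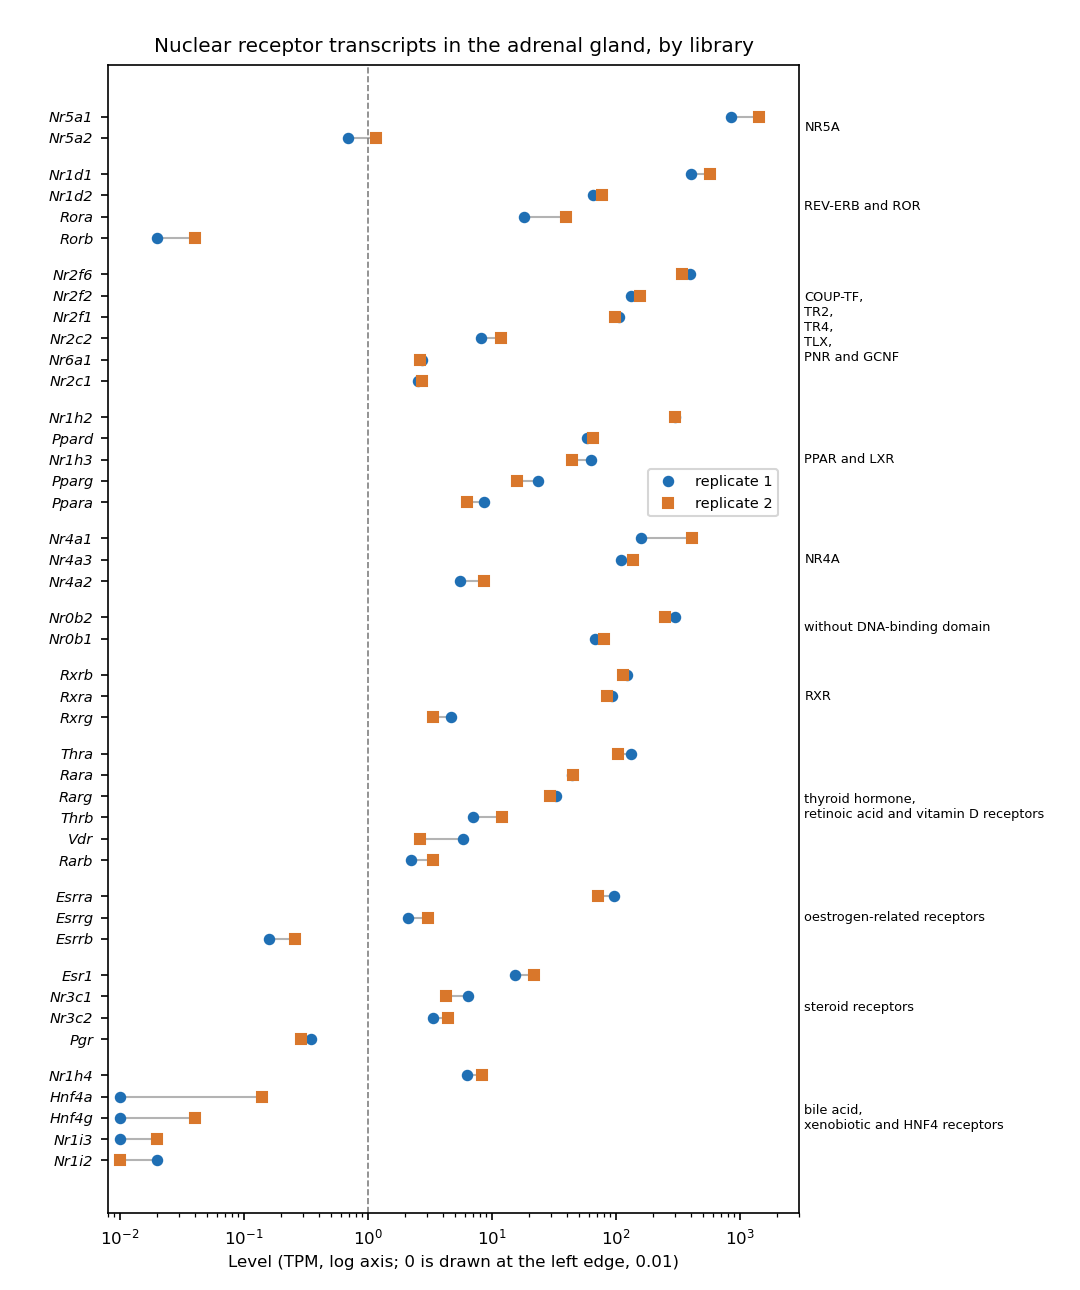
Level of each of the 43 members with a count in at least 1 library, in TPM on a log axis, by receptor class; the circle is replicate 1 and the square replicate 2, 0 is drawn at the left edge, and the dashed line marks 1 TPM. Nr5a1 stands highest at 840.1 and 1423 TPM, and 35 members lie right of the line in both libraries.

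The replicates were compared by the log2 ratio of scaled counts, replicate 1 over replicate 2, with an exact binomial 95% interval that covers counting error only. A gene was called when it differed at least 2-fold and its interval left out a ratio of 1. Genes needed 20 or more counts over both libraries, which 15814 had, and 7.12% of these were called, with 4.49% higher in replicate 1 and 2.63% higher in replicate 2. Of the members, 39 could be compared, and 3 were called: Vdr, higher in replicate 1, and Nr4a1 and Hnf4a, higher in replicate 2. That share is close to the background. The interval lay above a ratio of 1 for 15 members and below it for 18, and it held 1 for the other 6. Over all genes the interval left out 1 for 61.3%, with 30.7% on each side. Amplified reads are not independent molecules, so an interval that leaves out 1 shows only that these libraries differ. The median log2 ratio was -0.03 over the members and -0.0045 over all genes, and the median size without sign was 0.32 against 0.26. Directions hold for counts scaled by TMM, which takes most genes as equal. Scaled by the ERCC spike-ins instead, the median of all genes shifted by -0.43, and 13 of the 39 members, or 33.3%, changed sign from higher to lower in replicate 1, against 32.9% of all genes. They were Esrrb, Nr0b2, Nr1h2, Nr2f1, Nr2f6, Nr3c1, Pgr, Ppara, Rara, Rarg, Rxra, Rxrb and Thra. On that scale 6 members were called, all higher in replicate 2: Hnf4a, Nr4a1, Nr4a2, Nr5a1, Rora and Thrb. The split of all calls went from 710 higher in replicate 1 and 416 higher in replicate 2 to 287 and 1319.

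**Figure D2:**
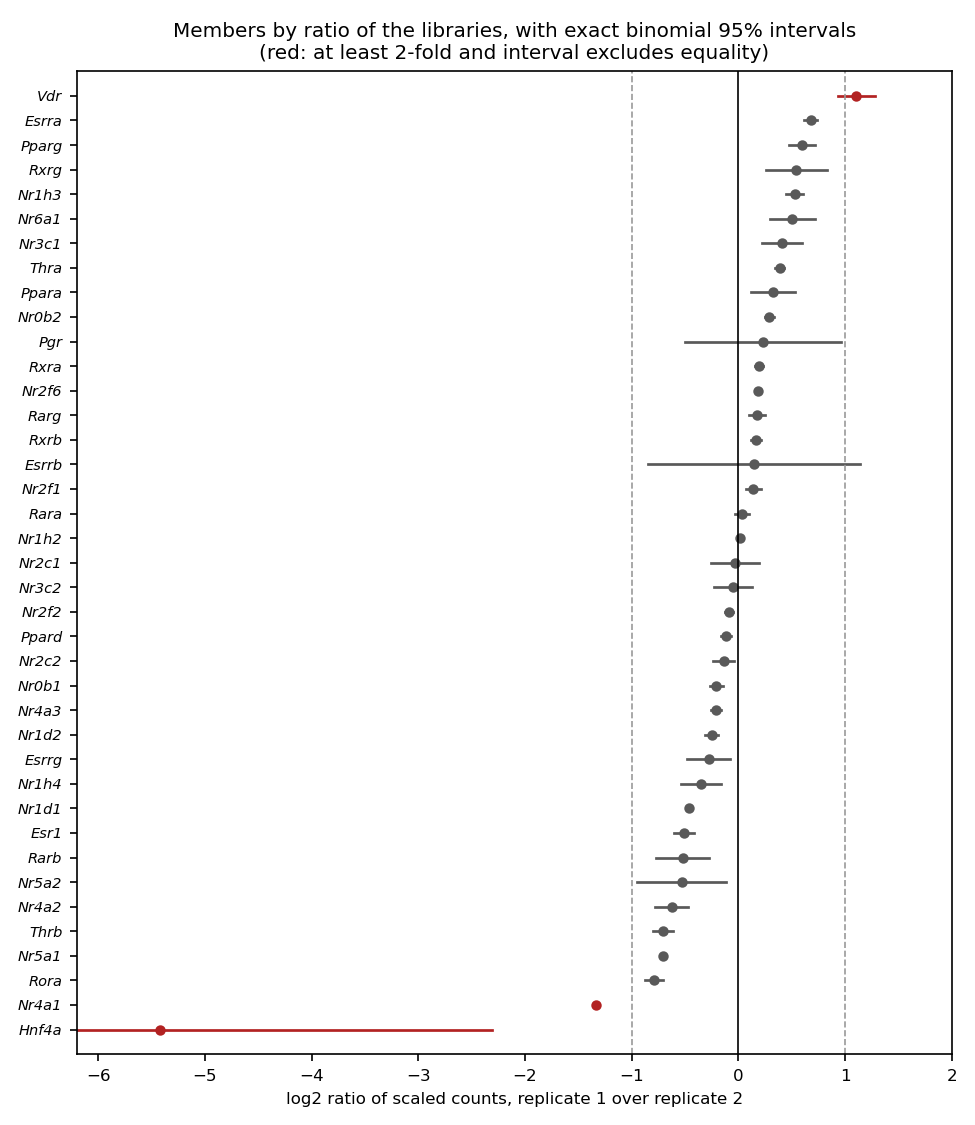
Log2 ratio of scaled counts, replicate 1 over replicate 2, for the 39 members compared, with exact binomial 95% intervals for counting error; red marks the called members and the dashed lines a 2-fold difference. The interval of Hnf4a, with 0 counts in replicate 1, runs past the left edge without bound, Nr4a1 lies at -1.34 and Vdr at 1.11.

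Nr5a1 (ENSMUSG00000026751.10, mm10 chromosome 2, 38692656 to 38714542, minus strand) was the highest member in both libraries, at 840.1 TPM in replicate 1 and 1423 in replicate 2. Replicate 2 was thus 1.64-fold higher by scaled counts. Its mean of 1131 ± 412 TPM (SD, n = 2) lay at the 99.1 percentile of detected protein-coding genes. Nr5a2, its paralogue LRH1, which controls bile acid and steroid genes in liver and ovary, was at 0.69 and 1.15 TPM. By TPM Nr5a1 exceeded Nr5a2 1218-fold in replicate 1 and 1237-fold in replicate 2. Nr5a2 had only 80 and 128 counts. Its log2 ratio of -0.53 had an interval of -0.95 to -0.12, which held the -0.71 of Nr5a1. The closeness of the 2 fold values is thus not resolved beyond counting error. Nr6a1, the germ cell nuclear factor, lies on the same strand 8827 bases from Nr5a1. It stood at 2.71 and 2.64 TPM, so that neighbours on the chromosome differed 310-fold and 539-fold in level.

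The members without a DNA-binding domain, which act by binding other nuclear receptors, were both well expressed. Nr0b2, encoding SHP, known best as the bile acid-induced repressor of the liver, stood at 296.7 TPM in replicate 1 and 249 in replicate 2. Nr0b1, encoding DAX1 (mm10 chromosome X, 86191764 to 86195947), was at 67.6 and 80.4 TPM. SHP transcripts exceeded DAX1 transcripts 4.39-fold and 3.10-fold, and the libraries did not overlap. As the receptor that both can bind, Nr5a1 was 12.4-fold above Nr0b1 in replicate 1 and 17.7-fold in replicate 2, and 2.83-fold and 5.71-fold above Nr0b2. Both ratios were larger in replicate 2, the library with the higher Nr5a1 and zona fasciculata values.

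The NR4A receptors NUR77, NURR1 and NOR1 are immediate early genes, induced within minutes by hormones that raise cyclic AMP, and they bind DNA without a known natural ligand. The bases upstream of their RefSeq starts, which for Nr4a1 lie in an intron of a longer annotated transcript, are shown because all 3 genes repeat the same motif there. Not all transcripts start at these windows. Nr4a1-201 does, but it was the only transcript counted for its gene, and the longer annotated one was not counted. The Nr4a2 window lies before Nr4a2-203 and Nr4a2-206, with 0 and 36.1 counts and with 9.85 and 0. Nr4a2-202 and Nr4a2-201, which held nearly all of that gene's TPM, start inside the gene at 57113072 and 57115038. The Nr4a3 window lies before the coding Nr4a3-201, while the leading Nr4a3-202 starts at 48051248. Windows are RefSeq's 250 bases before the start on GRCm38.p6, cut where a GENCODE exon begins. They are written 5′ to 3′ along the gene's strand, and capitals mark TGACG or its reverse complement CGTCA, the half-site of the cyclic AMP response element.
Nr4a1, chr15:101266596-101266845, plus strand: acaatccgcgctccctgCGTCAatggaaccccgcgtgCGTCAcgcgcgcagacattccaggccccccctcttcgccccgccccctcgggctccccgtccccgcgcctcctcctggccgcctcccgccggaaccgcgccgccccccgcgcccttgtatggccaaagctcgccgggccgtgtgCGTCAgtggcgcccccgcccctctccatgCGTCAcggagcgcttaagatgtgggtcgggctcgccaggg
Nr4a2, chr2:57124004-57124253, minus strand: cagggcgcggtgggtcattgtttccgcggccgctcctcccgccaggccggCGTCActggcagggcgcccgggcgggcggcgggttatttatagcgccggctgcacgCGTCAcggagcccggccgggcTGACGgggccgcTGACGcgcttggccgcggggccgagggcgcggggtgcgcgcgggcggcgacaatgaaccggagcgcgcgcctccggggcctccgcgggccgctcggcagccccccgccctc
Nr4a3, chr4:48045055-48045152, plus strand: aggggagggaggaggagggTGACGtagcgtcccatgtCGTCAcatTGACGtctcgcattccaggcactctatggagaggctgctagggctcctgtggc
Counting back from the start as base -1, the matches begin at -233, -213, -69 and -40 in Nr4a1 and at -200, -144, -123 and -111 in Nr4a2. In Nr4a3 they begin at -231, -213 and -205, and a further one lies in the part not printed. On either strand TGACG occurred in 17.8% of all 32841 windows of this length and in 20.3% of the 64 windows of members. At least 4 matches occurred in 45 windows, or 0.137%, and all 3 Nr4a windows were among them. The motif and the limit of 4 matches were chosen after levels and windows had been seen, so this share describes the 3 windows and tests nothing, and a match describes letters, not a bound site.

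Nr4a1 (ENSMUSG00000023034.6, mm10 chromosome 15, 101254269 to 101274795) stood at 158 TPM in replicate 1 and 412 in replicate 2. It had 12500 and 34991 counts. Replicate 2 was 2.53-fold higher, with a log2 ratio of replicate 1 over replicate 2 of -1.34 and an exact binomial 95% interval of -1.37 to -1.31 for counting error. Nr4a3 was at 110 and 138 TPM and differed less, with a log2 ratio of -0.21. Nr4a2, the member required for dopamine neurons, was much lower at 5.54 and 8.62 TPM, with 520 and 889 counts and a log2 ratio of -0.63. The authors' posterior mean TPM put it higher and in the other order, at 22.8 and 15.6, and no other detected member moved by over 1.5 times between these estimates. On that estimate the processed transcript Nr4a2-204, of 182 nt and with 0 expected counts in both libraries, held 75.3% and 44.4% of the gene. By scaled counts all 3 were higher in replicate 2, to different degrees: Nr4a1 over Nr4a3 was 1.44 in replicate 1 and 2.99 in replicate 2.

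REV-ERB and ROR receptors bind the same DNA element and act against each other in the circadian clock, REV-ERB as heme-sensing repressors and ROR as activators. Nr1d1, encoding REV-ERB alpha, was the second highest member by mean, at 406 TPM in replicate 1 and 573 in replicate 2. Nr1d2, encoding REV-ERB beta, was at 65.2 and 77.7 TPM. Rora stood at 18.2 and 39.3 TPM, a log2 ratio of -0.79, and Rorb, a receptor of retina and brain, had 6 and 7 counts. Summed over the class, levels were 489 TPM in replicate 1 and 690.3 in replicate 2. Of 5 clock genes that these receptors are known to regulate, 4 had higher scaled counts in replicate 1 beyond counting error and 0 had lower ones, against 30.7% of all genes tested on each side. Npas2, a paralogue of Clock, was the 1 gene called, at 12.2 TPM in replicate 1 and 7.16 in replicate 2. By spike-in scaling 0 were called, and 3 intervals lay above a ratio of 1 and 2 below it, against 7.17% and 68.2% of all genes. Arntl, encoding the clock activator BMAL1, was at 4.30 and 2.39 TPM, and the clock repressor Cry1 at 5.89 and 3.89. The other two barely differed, with Clock at 8.70 and 8.44 TPM and Nfil3, a repressor of the same output genes, at 7.63 and 7.57. No hour of collection stands in the labels.

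The lipid-sensing receptors were led by Nr1h2, encoding LXR beta, one of the oxysterol receptors that control cholesterol export. It stood at 298 TPM in replicate 1 and 301 in replicate 2. Nr1h3, encoding LXR alpha, was at 63.1 and 44.1 TPM, so that LXR beta exceeded it 4.73-fold and 6.84-fold. Among the fatty acid receptors, Ppard was at 58.3 and 65.1 TPM, Pparg, the adipocyte regulator, at 23.4 and 16.0, and Ppara, the receptor of fatty acid oxidation, at 8.56 and 6.28. Ppard was thus above Pparg 2.49-fold and 4.08-fold. Pparg was higher in replicate 1 by TMM with a log2 ratio of 0.60, as were 6 of the 7 adipocyte markers, against 30.7% of all genes. The median log2 ratio of these markers was 0.83. By spike-in scaling 5 marker intervals lay above a ratio of 1 and 2 below it, against 7.17% and 68.2% of all genes. Adipoq, an adipocyte hormone, stood at 240.2 and 137 TPM. Lep, the exception by TMM, was at 7.74 and 11.8. The part of fat tissue in the Pparg value was not tested.

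The COUP-TF receptors and their relatives are orphan receptors that mostly repress. Nr2f6, encoding EAR2, was the third highest member by mean, at 396 TPM in replicate 1 and 339 in replicate 2. Nr2f2, encoding COUP-TFII, a marker of the capsule, was at 133 and 156 TPM, and Nr2f1, encoding COUP-TFI, at 106 and 97.7. Nr2f6 exceeded Nr2f2 2.98-fold and 2.18-fold. The testicular receptors TR4 and TR2 were low, with Nr2c2 at 8.09 and 11.8 TPM and Nr2c1 at 2.55 and 2.70. The neural stem cell receptor Nr2e1 and the photoreceptor gene Nr2e3 had 0 counts in both libraries, which allows up to 0.0624 and 0.0563 CPM.

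Receptors of the steroid class were low in this gland. The class summed to 25.5 TPM in replicate 1 and 30.9 in replicate 2, or 0.701% and 0.679% of the members' total. Esr1, encoding oestrogen receptor alpha, was the highest at 15.4 and 22.0 TPM, while Esr2 had 0 counts in both. Nr3c1, the glucocorticoid receptor, stood at 6.40 and 4.26 TPM, and Nr3c2, the mineralocorticoid receptor, at 3.37 and 4.41. The order of these corticosteroid receptors differed between libraries, with a ratio of 1.90 in replicate 1 and 0.966 in replicate 2. The values in replicate 2 were nearly equal, and short forms with few counts enter both genes. Nr3c2-206 and Nr3c2-207 gave 0.48 and 0.32 TPM in replicate 2, from 7.61 and 1 counts. Nr3c1-206 gave 1.96 TPM in replicate 1 and 0.93 in replicate 2, from 21 and 11 counts. The order is thus not firmly placed. Pgr, the progesterone receptor, was below detection at 0.35 and 0.29 TPM with 35 and 33 counts. The oestrogen-related receptors, orphans that drive mitochondrial genes, were led by Esrra at 95.6 and 71.5 TPM. Esrrg was at 2.10 and 3.06 TPM, and Esrrb had 19 counts in each library.

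The retinoid X receptors, the common partners, were dominated by 2 forms. Rxrb stood at 123 TPM in replicate 1 and 113 in replicate 2, and Rxra at 92.8 and 84.9. Their ratio, Rxra over Rxrb, was 0.751 and 0.750 in the libraries. Rxrg, the form of muscle and brain, was at 4.68 and 3.35 TPM. Their partners of the thyroid hormone and retinoic acid families were detected in full. Thra was at 132 and 104 TPM, Rara at 43.9 and 44.6, Rarg at 32.5 and 29.2, Thrb at 7.07 and 12.0, and Rarb at 2.24 and 3.32.

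Vdr, the vitamin D receptor (ENSMUSG00000022479.11, mm10 chromosome 15, 97854425 to 97910630, minus strand), was at 5.82 TPM in replicate 1 and 2.64 in replicate 2. It had 797 and 410 counts, a 2.15-fold difference with a log2 ratio of 1.11 and an interval of 0.93 to 1.28. With spike-in scaling the log2 ratio was 0.68 and Vdr was not called. Of the 4 vitamin D targets in the list none was detected. Cyp27b1, which makes the active hormone, had 22 and 29 counts, Cyp24a1, which breaks it down, had 6 and 6, and the calcium channel Trpv6 and S100g had 0. The stomach and pancreas markers, at a summed 69.99 and 2.31 TPM, and the adipocyte markers were higher in the same library, and their part in the Vdr value was not tested.

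The receptors of bile acids and foreign compounds were mostly undetected. Nr1h4, the bile acid receptor FXR, was the single member of the class that was detected, at 6.33 TPM in replicate 1 and 8.37 in replicate 2, with 399 and 564 counts. Of the 4 FXR targets in the list none was detected. Slc51a had 10 and 16 counts, Fgf15 had 2 and 4, and Abcb11 and Slc51b had 0 in both. The bile acid-induced Nr0b2, at 296.7 and 249 TPM, was not on that list. Nr1i2, the xenobiotic receptor PXR, had 2 and 0 counts, Nr1i3, its relative CAR, 0 and 1, and Hnf4g 0 and 3. Nr1h5 had 0 in both libraries. Hnf4a, a liver and gut regulator, had 0 counts in replicate 1 and 22 in replicate 2, which makes replicate 2 at least 6.62-fold higher against a floor of 3 counts in replicate 1. Hepatocyte markers moved with it, and 5 of the 6 could be compared. All 5 were called higher in replicate 2, against 2.63% of all genes tested. Among them were Alb with 22 and 441 counts and Ttr with 0 and 222. The part of liver tissue in the Hnf4a value was not tested.

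Members lie side by side in 2 places of the genome that hold one gene each of the thyroid hormone receptor, REV-ERB and retinoic acid receptor pairs. On mm10 chromosome 11, Nr1d1 overlaps Thra by 1075 bases on the opposite strand, and Rara starts 158.8 kb beyond Thra. On chromosome 14, Nr1d2 lies 166 kb from Thrb, and Thrb 841.1 kb from Rarb. In each pair the gene on chromosome 11 was the higher one in both libraries. Thra exceeded Thrb 18.7-fold in replicate 1 and 8.72-fold in replicate 2, Nr1d1 exceeded Nr1d2 6.22-fold and 7.38-fold, and Rara exceeded Rarb 19.6-fold and 13.4-fold. The overlapping genes differed between libraries in opposite directions by TMM scaling, with log2 ratios of 0.39 for Thra and -0.46 for Nr1d1, while by spike-ins both were lower in replicate 1. The labels and readme files do not say whether counting used strand; without it, reads in the overlap could not be told apart.

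**Figure D3:**
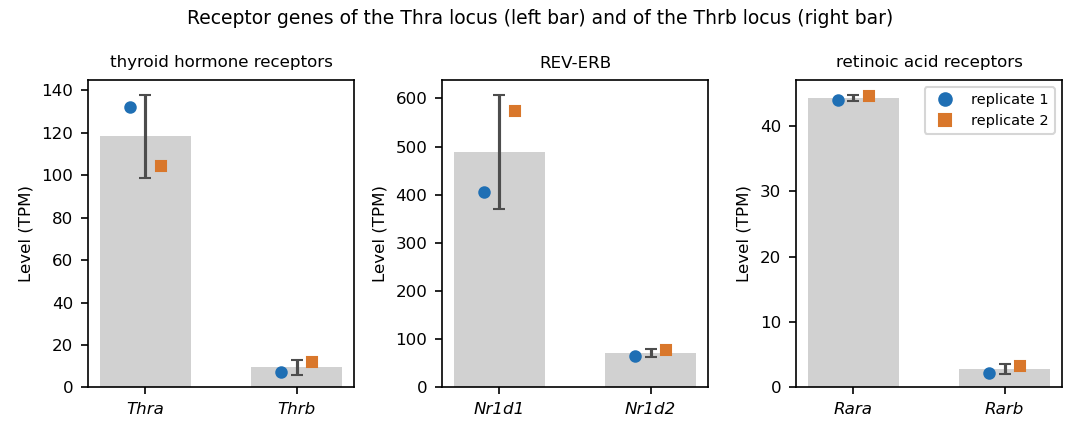
Level in TPM of the paired receptor genes on chromosomes 11 (left bar) and 14 (right bar); bars are means, error bars the SD (n = 2), circles replicate 1 and squares replicate 2. The left bar is higher in every pair, with Thra at 132 and 104 TPM against Thrb at 7.07 and 12.0.

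Levels of a gene hide which of its transcripts were counted. The deposited transcript tables give 240 transcripts for the members, and of the 35 detected genes 31 have several. The leading transcript was shared by the libraries in 29 of these and differed in Nr2c2 and Esrrg. The median leading transcript held 77.7% of its gene's TPM in replicate 1 and 72.3% in replicate 2. The leader was protein-coding in both libraries in 26 genes, lacked a stable coding annotation in both in 4, and differed in kind between libraries in Nr2c2.

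Nr1d2 and Nr4a3 were counted mostly on transcripts without a coding sequence. Nr1d2-202, which GENCODE lists as a retained intron of 1680 nt, held 94.2% of the gene's TPM in replicate 1 and 92.6% in replicate 2. The coding transcript Nr1d2-201, of 4663 nt and 576 codons, was left with 3.76 and 5.72 TPM. For Nr4a3, the processed transcript Nr4a3-202 of 1290 nt held 70.2% and 67.8%, and coding transcripts summed to 13.3 and 14.6 TPM. Ranked by coding TPM among the detected members, Nr1d2 moved from rank 15 to 27 and Nr4a3 from rank 8 to 20. The noncoding forms are shorter and TPM is per length, so their share of counts is smaller. Coding transcripts held 15.5% and 19.2% of the expected counts of Nr1d2, and 42.9% and 39.4% of those of Nr4a3.

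Rora was the third member with under 50% of its TPM on coding transcripts in both libraries, at 36.9% and 43.6%. Here the short Rora-206, of 751 nt and listed as a target of nonsense-mediated decay, led with 56.9% and 52.9% of TPM. By expected counts the coding transcripts of Rora held 85.9% and 85.2%. Among those, Rora-202 was at 3.40 TPM in replicate 1 and 12.8 in replicate 2, while the longer Rora-201 was at 3.32 and 4.37. In Ppara the leader was a processed transcript of 367 nt with 23.5 and 16.6 counts, too few to place its 46.1% and 39.5% of TPM firmly. At the other end, 20 genes had over 90% of TPM on coding transcripts in both libraries. Reads shared between transcripts were divided by the authors' estimate, so these shares carry an error that the tables do not give.

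**Figure D4:**
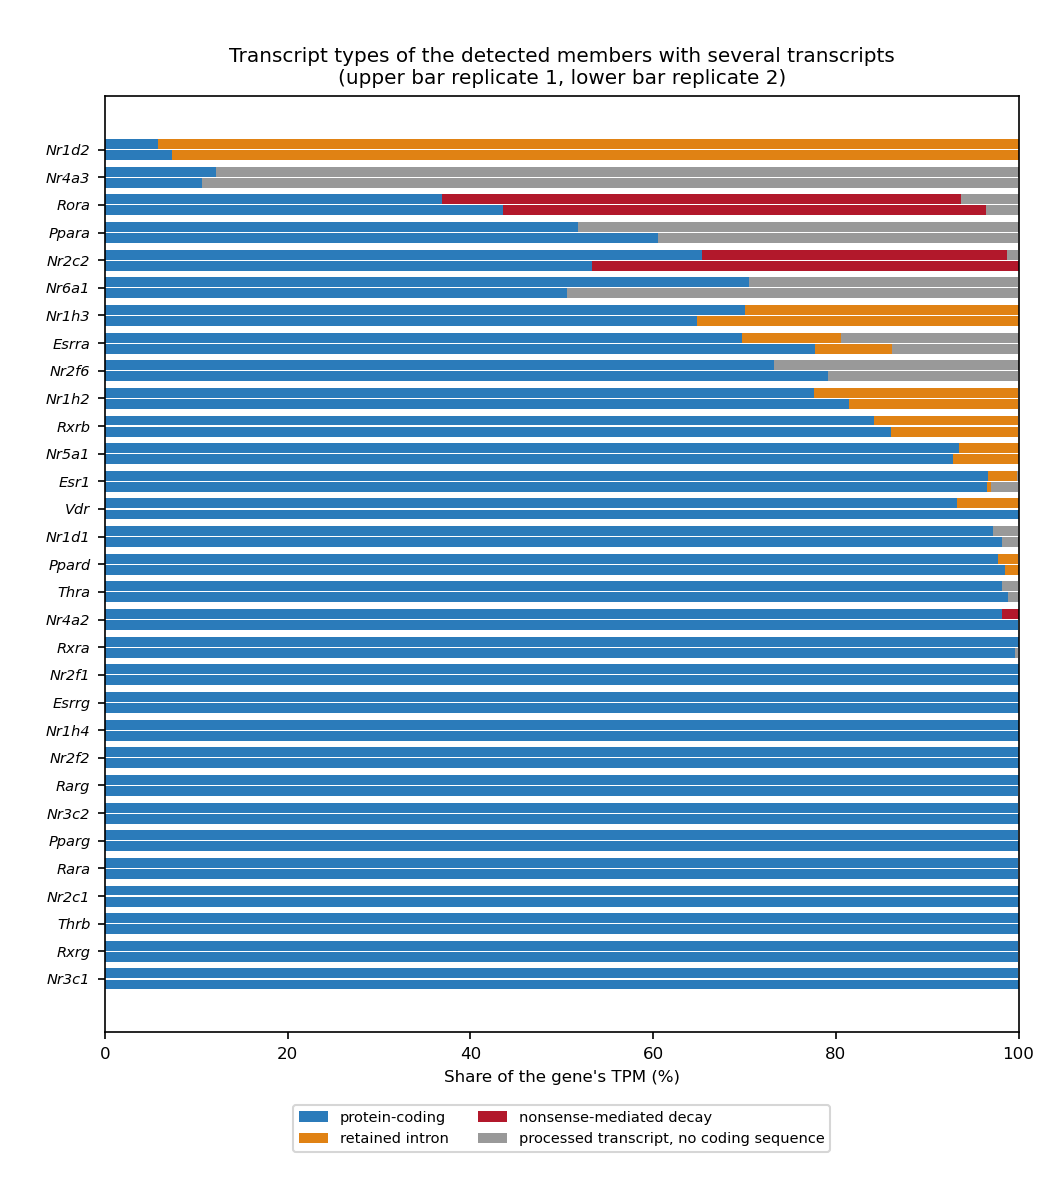
Share of each gene's TPM, in percent, by GENCODE transcript type for the 31 detected members with several transcripts; the upper bar of each pair is replicate 1 and the lower bar replicate 2. Coding transcripts of Nr1d2 hold 5.76% and 7.36%, and the order of the genes by coding share starts with Nr1d2, Nr4a3 and Rora.

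Several leading transcripts name a known receptor form. Pparg was counted on Pparg-201, of 505 codons, for 96.3% and 97.2% of TPM; this is the length of PPAR gamma 2, the form characteristic of adipocytes. Thra-201, of 492 codons, the length of TR alpha 2, which does not bind thyroid hormone, held 86.4% and 83.6%. Thra-202, of 410 codons, the hormone-binding TR alpha 1, held 11.3% and 14.5%, or 14.9 and 15.1 TPM. Thra-201 and the low Thra-203 end in the overlap with Nr1d1, and Thra-202 ends before it. Nr5a1-201, of 462 codons, held 91.9% and 91.1%. Shorter forms led by TPM in Nr2f1 and Nr2f2: Nr2f1-202, of 273 codons, held 87.5% and 86.9%, against 420 codons for Nr2f1-201, and Nr2f2-202, of 281 codons, held 62.7% and 68.5%. At 841 nt Nr2f1-202 is much shorter than the 3207 nt of Nr2f1-201, and their counts were 2077 and 1386 in replicate 1. By counts the longer Nr2f2-201, of 414 codons, led Nr2f2-202 in both libraries, with 6946 against 4260 and 7352 against 5863. Nr2f6 was led by Nr2f6-201, of 390 codons, with 72.9% and 79.0% of TPM. Nr1h2 was spread widely, with its leader Nr1h2-201 at 21.5% and 24.2% of 13 transcripts.

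Nr0b1 is shown as a member whose upstream bases hold AGGTCA, the half-site that most nuclear receptors bind, in capitals. The bases run 5′ to 3′ on GRCm38.p6 up to the first GENCODE exon, and the match begins at -126.
Nr0b1, chrX:86191525-86191763, plus strand: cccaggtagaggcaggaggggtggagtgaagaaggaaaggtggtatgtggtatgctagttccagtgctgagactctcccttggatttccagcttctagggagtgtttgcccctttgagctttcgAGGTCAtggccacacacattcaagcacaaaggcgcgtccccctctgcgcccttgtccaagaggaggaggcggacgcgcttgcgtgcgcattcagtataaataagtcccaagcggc
Windows were found for 43 of the 47 members, and not for Hnf4g, Nr3c1, Nr5a1 and Thra. AGGTCA on either strand occurred in 11 of the 64 windows of these members, or 17.2%, and in 14.0% of all windows. The members with a match were Nr0b1, Nr1d2, Nr1h4, Nr5a2, Nr6a1, Pparg, Rarg, Rxra, Rxrg and Thrb.

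Coregulators, the proteins that receptors recruit to open or close chromatin, were broadly expressed. Of 25 measured, 22 were detected, and among the highest were the helicase Ddx5 at 2828 TPM in replicate 1 and 2962 in replicate 2, and Gps2, a part of the corepressor complex, at 130.5 and 147. None was called, but 19 had an interval below a ratio of 1 and 2 above it, with a median log2 ratio of -0.20, against 30.7% of all genes on each side. With spike-in scaling the intervals lay below for 22 and above for 1, against 68.2% and 7.17% of all genes, and Lcor at -1.30 and Med1 at -1.01 were called. Ppargc1b, which coactivates the oestrogen-related receptors and PPARs, was one of the 2 above, at 5.43 and 3.57 TPM. Ppargc1a was below detection at 0.47 and 0.57 TPM.

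All 12 genes on the list of steroid receptor chaperones and cochaperones were detected. Hspa8 led at 1811 TPM in replicate 1 and 2836 in replicate 2, with Hsp90ab1 at 199 and 288. Bag1, a cochaperone that binds receptors and HSP70, was at 569 and 237 TPM and was the 1 called, with a log2 ratio of 1.33. In all, 7 of the 12 had an interval below a ratio of 1 and 3 above it, against 30.7% of all genes on each side. By spike-in scaling 11 lay below and 1 above, against 68.2% and 7.17%. Bag1 was then at 0.90 and not called, while Hspa8 at -1.09 and the cochaperone Stip1 at -1.28 were called higher in replicate 2.

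Genes that SF1 is known to activate were expressed at very high levels. All 10 were detected, led by Cyp21a1 at 14483 TPM in replicate 1 and 19341 in replicate 2, Fdx1 at 3908 and 2911, and Hsd3b1 at 2831 and 3268. None was called, 8 had an interval below a ratio of 1 and 2 above it, against 30.7% of all genes on each side, and the median log2 ratio was -0.32. By spike-in scaling 9 lay below and 1 above, against 68.2% and 7.17% of all genes, and Cyp11b1 at -1.02 and Mc2r at -1.25 were called higher in replicate 2. By TMM Nr5a1 itself was at -0.71, and the fasciculata markers Cyp11b1, Akr1b7 and Mc2r, all on this list, at -0.59, -0.49 and -0.82.

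PPAR targets, all 16 of which were detected, were mostly higher in replicate 1 by TMM scaling. By TMM 12 had an interval above a ratio of 1 and 2 below it, against 30.7% of all genes on each side, and the median log2 ratio was 0.50. By spike-in scaling 37.5% of the targets had an interval above and 43.8% below, against 7.17% and 68.2% of all genes, with a median of 0.07 against -0.43, and 0 were called. The 3 called by TMM were Ucp1, Angptl4 and Pdk4. The brown fat uncoupler Ucp1 stood at 1129 TPM in replicate 1 and 544 in replicate 2. The lipase inhibitor Angptl4 was at 259 and 129, and Pdk4, which spares glucose, at 219 and 147. Calls rest on scaled counts, by which Pdk4 differed 2.19-fold, more than by TPM. The lipid droplet genes Cidec and Plin2 stood at 901 and 511 TPM and at 307 and 305. Fabp4, Ucp1 and Cidea of this list are also adipocyte markers. The adipocyte markers summed to 12386 TPM in replicate 1 and 5366 in replicate 2, of which Cfd alone held 9884 and 3984. The part of fat tissue in these values was not tested.

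LXR targets showed no call among the 9 compared, with 5 intervals above a ratio of 1 and 3 below it, against 30.7% of all genes on each side. Scd1, a fatty acid desaturase, was at 1871 TPM in replicate 1 and 2246 in replicate 2, Apoe at 1938 and 1648, and Srebf1 at 749 and 651. Abca1, the cholesterol exporter of cell membranes, was at 15.8 and 27.6 TPM and was called by spike-in scaling, at -1.18. Glucocorticoid targets had none called among 11, with 5 intervals above and 5 below. By spike-in scaling 8 of the 9 LXR and all 11 glucocorticoid target intervals lay below a ratio of 1, against 68.2% of all genes, and Per1 was called at -1.23. The glucocorticoid targets were led by the metallothionein Mt1 at 943 and 904.5 TPM, Nfkbia at 104 and 133, and Klf9 at 93.1 and 88.5. Among retinoic acid targets, 5 of 8 were detected, led by Dhrs3 at 96.96 and 134 TPM and Tgm2 at 67.2 and 69.0. Cyp26b1, which breaks down retinoic acid, was the 1 called, at 1.03 and 4.90 TPM with a log2 ratio of -2.19. Of the 3 thyroid hormone targets compared, all were higher in replicate 1 by TMM, against 30.7% of all genes, and none was called. By spike-in scaling 1 interval lay above a ratio of 1 and 2 below it, against 7.17% and 68.2% of all genes. The lipogenic gene Thrsp led at 387 and 261 TPM. Klf9, at 93.1 and 88.5 TPM, and the corepressor gene Hr, at 9.80 and 9.46 TPM, had TMM log2 ratios of only 0.12 and 0.22. Of the PXR and CAR targets Ugt1a1 was called at 4.07 and 9.67 TPM and Cyp2b10 at 22 and 11 counts, in opposite directions, but Cyp2b10 not by spike-in scaling, and Abcb1a stood at 2.23 and 2.04 TPM. Of the 3 oestrogen targets in the list 1 was detected, Greb1, at 83.3 and 59.7 TPM. Ltf had 5 and 1 counts and Areg 0 in both libraries.

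**Figure D5:**
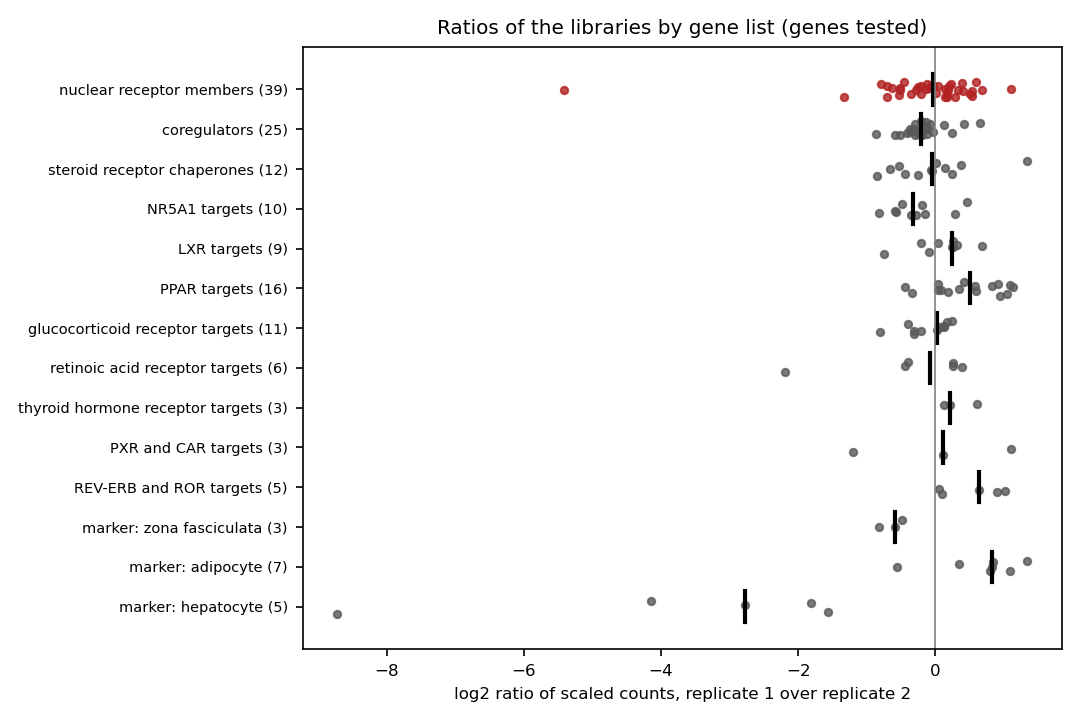
Log2 ratio of scaled counts, replicate 1 over replicate 2, for each gene compared in the lists (number of genes in brackets); black bars are list medians and the grey line marks equal levels. PPAR targets have a median of 0.50, NR5A1 targets of -0.32 and the receptors themselves of -0.03, with hepatocyte markers at -2.78 and adipocyte markers at 0.83.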

How the data were processed

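Both libraries of the single group were used, and no sample was left out. Per the readme files deposited with them, the tables come from transcriptome alignments to mm10 with the M4 annotation, 1 library per table; no aligner or quantifier is named in the labels or those files. The authors' expected counts are estimated read pairs per gene or transcript, with no scaling. The deposited TPM values share out a constant sum among genes and spike-in RNAs, and the deposited FPKM values are scaled by length and fragments. Junction and contig tables in mm9 were not used. Names and transcript types were matched to GENCODE M21, which named 42462 identifiers, and promoter windows to RefSeq. ERCC spike-ins took 0.654% and 0.485% of expected counts and were left out of totals.

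For the ratios, expected counts were rounded to whole numbers and scaled with TMM factors of 1.00 and 0.999 (edgeR 4.0.16 in R 4.3.3), with a prior count of 0.5 and a summed count of at least 20. Intervals are Clopper-Pearson (scipy 1.17.1). No p-value was computed, since 1 library against another leaves no residual degree of freedom. The calculation was tested on simulated data. Expected counts were fractional for 12 members in replicate 1 and 0 in replicate 2 (tolerance 0.005); a fraction arises where reads are shared between genes.

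Members, lists and tests were chosen with earlier results of these data known. Named genes are all members, and of each list of coregulators, chaperones and targets the 3 highest by mean TPM and every gene called; marker genes are named where their list moved with a member. Some genes that this rule names are not reported here. Nfil3, Clock, Arntl, Cry1, Abca1, Per1, Stip1, Lcor, Med1, Ppargc1a, Ppargc1b and the low counts of undetected targets were named after their values were seen, as was the TGACG motif. Of the 26 coregulators, Prmt1 was not matched.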

Additional observations from a re-analysis of the deposited data

How the results depend on the processing

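No paired analysis was possible because the study has 1 group, so there is nothing to pair. Total count, DESeq2 size factors and posterior mean counts called the same 3 members and kept every list within 1.5 times its count. Scaling by spike-ins moved the median log2 ratio of all genes by -0.43, and directions are relative to it. It called 6 members, 2 coregulators, 2 chaperones, 2 NR5A1 targets, 1 LXR, 1 glucocorticoid and 1 PXR or CAR target, and 0 PPAR and 0 REV-ERB or ROR targets. At 1.5-fold 9 members were called, with 2 coregulators, 3 chaperones, 2 NR5A1, 2 LXR, 7 PPAR, 1 glucocorticoid, 1 thyroid hormone and 3 REV-ERB or ROR targets. With a summed count of at least 1, 2 LXR, 2 retinoic acid, 1 thyroid hormone and 4 PXR or CAR targets were called. With at least 100, Hnf4a dropped out as not compared, 2 members were called, and 1 PXR or CAR target; 462 genes were called in all, against 1126. A prior count of 5 left 1 PXR or CAR target. On log2(TPM + 1), 358 genes, 2 members (Nr4a1 and Rora), 1 PXR or CAR target and 0 REV-ERB or ROR targets were called. With a single library per side these calls have no replicate check.

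The median detected member was 31.5 in FPKM, and 43.9 to 44.1 TPM from a single library. The members' share was 0.633% by expected counts and 0.368% to 0.460% by single libraries. Detected members numbered 27 at a minimum of 5 TPM and 35 to 36 at 0.5 or 2 TPM, by posterior mean TPM and by single libraries, and the median leading share was 72.3% to 77.7% by single libraries. Under 50% coding TPM held for 3 members, and for 2, Nr1d2 and Nr4a3, by counts, an alternative chosen after seeing the data. By posterior mean TPM the levels of 36 members stayed within 1 SD and those of 11 did not. All 39 ratios stayed within their main interval with total count, DESeq2 size factors, posterior mean counts or a prior count of 5, 23 did on log2(TPM + 1), and 3 did with spike-ins. The limits on counts and fold leave a ratio as it is, and with 2 libraries each lies within 1 SD of the mean by construction, so those outcomes show no stability. The cause was not tested, beyond fewer genes compared at the higher minimum. Low counts limit Hnf4a, Pgr and Esrrb most.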
